A study of Mus musculus with 2 samples.

Results

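The genes described here encode the integrins, the laminins and a small set of matrix proteins that bind them, in the facial prominences of the mouse embryo. They were taken by name: every protein-coding gene for an integrin α chain, an integrin β chain or a laminin α, β or γ chain, with Fn1 (fibronectin), Nid1 and Nid2 (nidogens), Tnc (tenascin C) and Npnt (nephronectin). This gave 42 genes, 18 of them integrin α chains, 8 integrin β chains, 11 laminin chains and 5 other ligands, among 43346 genes quantified, of which 21474 are protein-coding by the GENCODE M21 names. Total RNA had been sequenced from facial prominences of strain B6NCrl embryos at 11.5 days, both sexes mixed and with no allele or treatment named, in 2 libraries that form 1 group. Pools of 109 embryos for library 1 and of 88 embryos for library 2 supplied the tissue, and each library used 10 ng of RNA over 200 nt with RNA spike-ins. The facial prominences are swellings of neural crest mesenchyme under ectoderm, with vessels, nerves, blood and early muscle, that will form the face and jaws.

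An integrin is a pair of one α and one β chain that spans the cell membrane, holds matrix outside and links to actin inside through adaptor proteins. The β1 chain pairs with most α chains, and αv pairs with several β chains. Laminins are trimers of one α, one β and one γ chain and, with nidogen, type IV collagen and perlecan, build the basement membrane under epithelia and around vessels, nerves and muscle. Fibronectin, tenascin C and nephronectin lie in or near the interstitial matrix and are bound by integrins, several of which recognise the tripeptide Arg-Gly-Asp (RGD). In the face, neural crest cells migrate through and settle in a matrix rich in fibronectin and laminin.

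Library 1 held 30849058 expected counts and library 2 held 31600302, and the 42 genes took 60049 and 60431 of them, 0.210% and 0.206% of the counts on genes. Levels are in TPM, a transcript abundance scaled to the same total in each library, which corrects for transcript length and so allows genes to be compared. Detection required 1 TPM in each of the libraries. Values after ± are the SD of the 2 libraries (n = 2), and with 1 group and 2 libraries no test between conditions exists and no p-value is given. Nothing in the labels divides an embryo pool further, so the spread covers pools and their libraries together. Markers fixed as lists describe the cell types present. They are not lists of facial genes, so they do not test the label of the tissue. All 6 mesenchyme markers were detected, with a summed level of 1351 and 1301 TPM in library 1 and library 2. All 8 epithelium markers were detected, with 260 and 231 TPM. All 7 endothelium markers (157 and 144 TPM), 7 of 7 erythroid (11200 and 10300 TPM), 6 of 6 neuron (626 and 519 TPM), 4 of 6 glia (193 and 214 TPM) and 4 of 6 cartilage markers (265 and 242 TPM) were detected too. Muscle markers, 7 of 7 detected, summed to 111.4 TPM in library 1 and 179 TPM in library 2, the largest ratio between the libraries among the 10 marker lists. No marker was at 0 in both libraries.

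Of the 42 genes, 29 were detected, against 58.5% of all protein-coding genes. They were 11 of the 18 integrin α chains, 5 of the 8 β chains, 8 of the 11 laminin chains and all 5 other ligands. The median of the 42 mean levels was 4.47 TPM, beside 3.45 TPM over all protein-coding genes. Itgb1 was the most abundant of the 42 and stood at rank 749 among protein-coding genes, followed by Fn1 at rank 1612 and Itgb5 at rank 2512. Of the other 13, Itgb2 passed 1 TPM in library 2 alone, and 12 were under 1 TPM in both libraries. In a whole tissue, fewer cells of a type and less RNA per cell cannot be told apart.

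**Figure D1:**
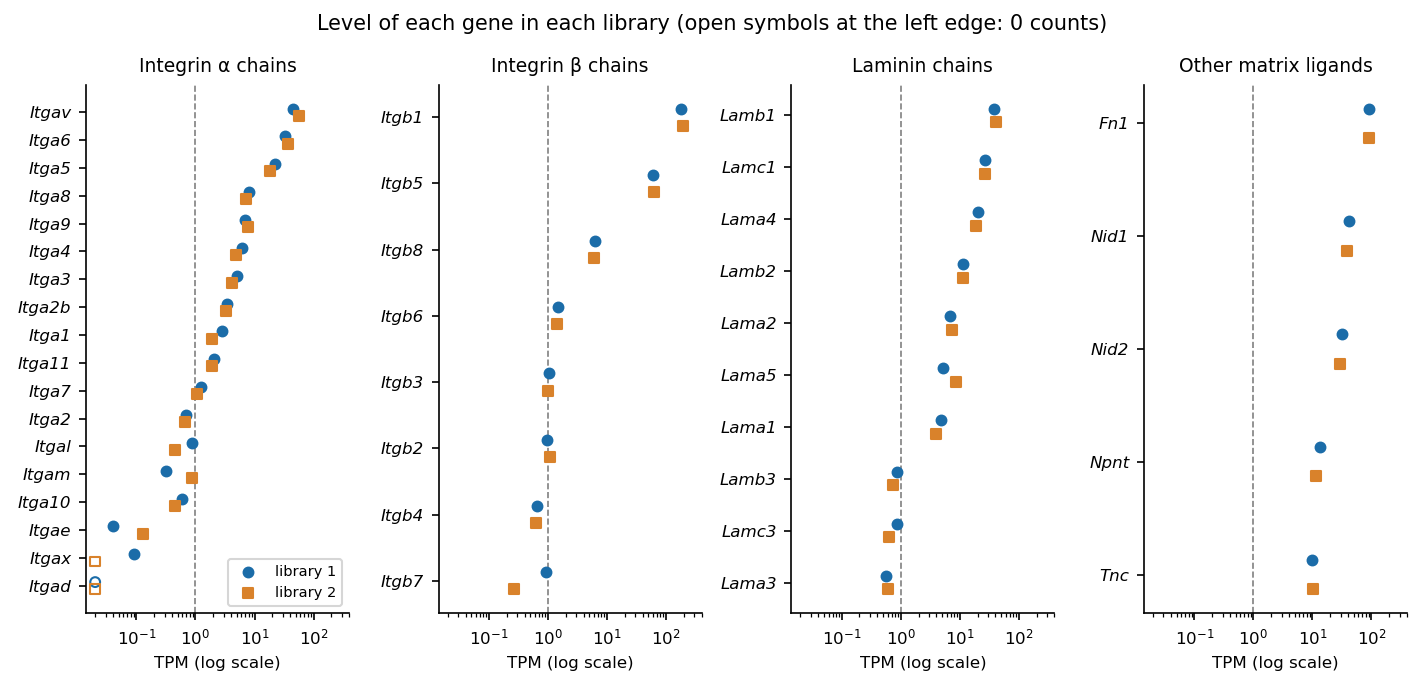
TPM of the genes on a log axis, in 4 panels by family and ordered by mean; circles are library 1, squares are library 2, the dashed line is 1 TPM, and open symbols at the left edge are genes with 0 counts. Itgb1 sits highest in both libraries, and the symbols of a gene lie close together except for Itgal, Itgam, Itgb7, Itgae, Itgax and, among detected genes, Lama5.

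Among the β chains the level was concentrated in Itgb1, whose product is the partner of 12 of the α chains here. Itgb1 (chr8:128685654-128733200, plus strand, mm10) measured 176.53 TPM in library 1 and 190.62 TPM in library 2. This was 3.04 ± 0.04 times the level of Itgb5 and 1.29 ± 0.01 times the sum of all 18 α chains, which was 138 and 147 TPM. That sum included short and non-coding transcripts, among them 27.03 and 36.82 TPM from an Itgav transcript of 463 nt. The ratio to the sum therefore depends on which transcripts count. Itgb5, a partner of αv alone (chr16:33829665-33949338), measured 58.67 and 62.18 TPM. Itgb8, another αv partner, which serves in releasing latent TGF-β, measured 6.35 and 5.89 TPM, so that Itgb5 was 9.90 ± 0.93 times higher. The order Itgb1, Itgb5, Itgb8, Itgb6 held in both libraries with no overlap of neighbours.

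Below these, Itgb6, the epithelial partner of αv, measured 1.46 and 1.40 TPM. Itgb3, the β chain of the platelet and osteoclast integrins, measured 1.03 and 1.01 TPM and lay just above the threshold for detection. Itgb2, the β chain of the leukocyte integrins, lay across it, with 0.96 and 1.06 TPM, and its range overlapped that of Itgb3. Most of the TPM of Itgb2 (76.97% and 57.74%) was in Itgb2-204, a transcript annotated as nonsense-mediated decay. Its long coding transcripts held 0.22 and 0.45 TPM. Itgb4, which joins α6 in the hemidesmosomes of stratified epithelia, was under the threshold at 0.64 and 0.63 TPM from 74 counts in each library. Itgb7, a lymphocyte chain, had 0.91 TPM from 48 counts in library 1 and 0.26 TPM from 14 counts in library 2.

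The α chains were led by αv, α6 and α5. Itgav (chr2:83724397-83806916), the common chain of the αv integrins, measured 44.96 TPM in library 1 and 57.12 TPM in library 2. Itga6 (chr2:71745616-71858416), a laminin receptor chain, measured 32.62 and 37.34 TPM. Itga5 (chr15:103344286-103366763), whose pair with β1 is the classical fibronectin receptor, measured 21.82 and 18.17 TPM. The 3 did not overlap, and Itga5 was clear of the next chain, Itga8, by 2.65 times.

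The place of Itgav depends on which transcripts count. A transcript of 463 nt, Itgav-205, took 60.13% of its TPM in library 1 and 64.46% in library 2, but only 201.75 and 279.74 of its 2380 and 2860 counts, because TPM divides by length. Over transcripts at least 50% as long as the longest one of the gene, Itgav measured 15.2 and 17.7 TPM. On that basis it stood below Itga6, at 29.6 and 32.3 TPM, and below Itga5, at 21.8 and 18.2 TPM, with no overlap between the 3. The long transcripts of Itga6 include a processed one, Itga6-203. Over long coding transcripts alone Itga6 measured 14.7 and 17.0 TPM, which overlapped Itgav, and Itga5 was above both. Both alternatives were chosen after the data were seen, and whether the short transcript exists in the tissue was not tested.

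A second tier of α chains lay well below these, from Itga8 down to Itga3. Itga8, an RGD-binding chain whose best known ligand is nephronectin, measured 8.02 and 7.06 TPM, and Itga9, a receptor chain for tenascin C and the EIIIA segment of fibronectin, 6.97 and 7.65 TPM. These overlapped each other. Itga4, which binds the variable segment of fibronectin, measured 6.20 and 4.87 TPM, and Itga3, a receptor chain for laminins with the α3 or α5 chain, 4.96 and 4.14 TPM, again with overlap. Some 8.04% of the exon bases of Itga4 overlap exons of Cerkl on the opposite strand, which measured 1.89 and 2.11 TPM, and the sources used here do not give strandedness.

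The collagen receptor chains were low. Itga1, found on mesenchyme and smooth muscle, measured 2.79 TPM in library 1 and 1.92 TPM in library 2, and Itga11, the fibroblast receptor chain for fibrillar collagen, measured 2.04 and 1.88 TPM. Their ranges overlapped. Itga2 was under the threshold at 0.70 and 0.66 TPM from 59 and 57 counts, and Itga10, the cartilage collagen receptor chain, at 0.59 and 0.45 TPM from 49 and 46 counts. Some 33.5% of the exon bases of Itga10 overlap Gm42957 on the same strand, which has no value here. In the same libraries 4 of 6 cartilage markers were detected, led by Col2a1, the collagen of cartilage, at 134.81 and 123.03 TPM. The other markers, Acan (0.52 and 0.47 TPM) and Matn1 (0.46 and 0.25 TPM), were under the threshold. Itga7, the muscle laminin receptor chain, measured 1.25 TPM in library 1 and 1.08 TPM in library 2. The summed muscle markers were 1.61 times as high in library 2 as in library 1, led by Actc1 (43.34 and 87.04 TPM). By the counting interval 6 of the 7 muscle markers were higher in library 2, and for Myod1 (1.06-fold, 0.877 to 1.29) the interval included a ratio of 1. The part of the muscle markers in the level of Itga7 was not tested.

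Chains of blood cells were low. Itga2b, the platelet and megakaryocyte chain, measured 3.38 and 3.31 TPM from 154 and 109 counts, and its long transcripts 2.05 and 1.23 TPM. Of 8 platelet markers 5 were detected, with a sum of 85.9 and 75.1 TPM. Itgal had 0.89 and 0.45 TPM from 76 and 38 counts, and Itgam, a macrophage chain, had 0.32 and 0.87 TPM from 28 and 55 counts. Long coding transcripts of Itgam held 0.08 and 0.36 TPM. Some 68.7% of its exon bases overlap Gm49368 on the same strand, which has no value here, and the effect on Itgam was not tested. Itgae had 3 counts in library 1 and 10 in library 2, and Itgax had 7 in library 1 and 0 in library 2, where 3 counts would be 0.0364 TPM. Itgad had 0 counts in both, which allows up to 0.0586 TPM in library 1 and 0.0576 TPM in library 2. Leukocyte markers were present beside these: 8 of 9 were detected, with a sum of 98.3 and 94.4 TPM, led by C1qb (24.12 and 21.75 TPM), a product of macrophages.

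Pairing the chains by the known heterodimers, 15 of 24 had both chains detected. The levels of both chains limit a pair only in part, since a chain shared by several pairs is divided among them in a way RNA levels do not show. Taken as the level of the scarcer chain, the leading pairs were αvβ5 and αvβ1, each limited by Itgav (44.96 and 57.12 TPM), α6β1 by Itga6 and α5β1 by Itga5. Over long coding transcripts α5β1 stood highest of these, and α6β1 overlapped both αv pairs. Pairs α8β1, α9β1 and αvβ8 followed, and 7 of the 24 had their scarcer chain at 5 TPM or more in both libraries. In every pair of a detected α chain with β1, the α chain was the scarcer, by 3.34 times for Itgav in library 2 and by more for the other α chains. For Itgav the margin was wider over long coding transcripts, at 15.2 and 17.7 TPM against 175.7 and 189.3 TPM for Itgb1.

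Pairs αvβ3 and αIIbβ3 counted as detected only narrowly, through Itgb3, and αvβ6 through Itgb6 at 1.46 and 1.40 TPM. The 9 pairs that were not detected were α2β1, α10β1, α6β4, α4β7, αEβ7 and the 4 pairs with β2. At a threshold of 2 TPM, 9 of the 24 pairs had both chains detected, because Itga7, Itga11, Itga1 in library 2, Itgb3 and Itgb6 fell under it. From posterior mean TPM, however, Itgb6 averaged 2.38 TPM, against 1.43.

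**Figure D2:**
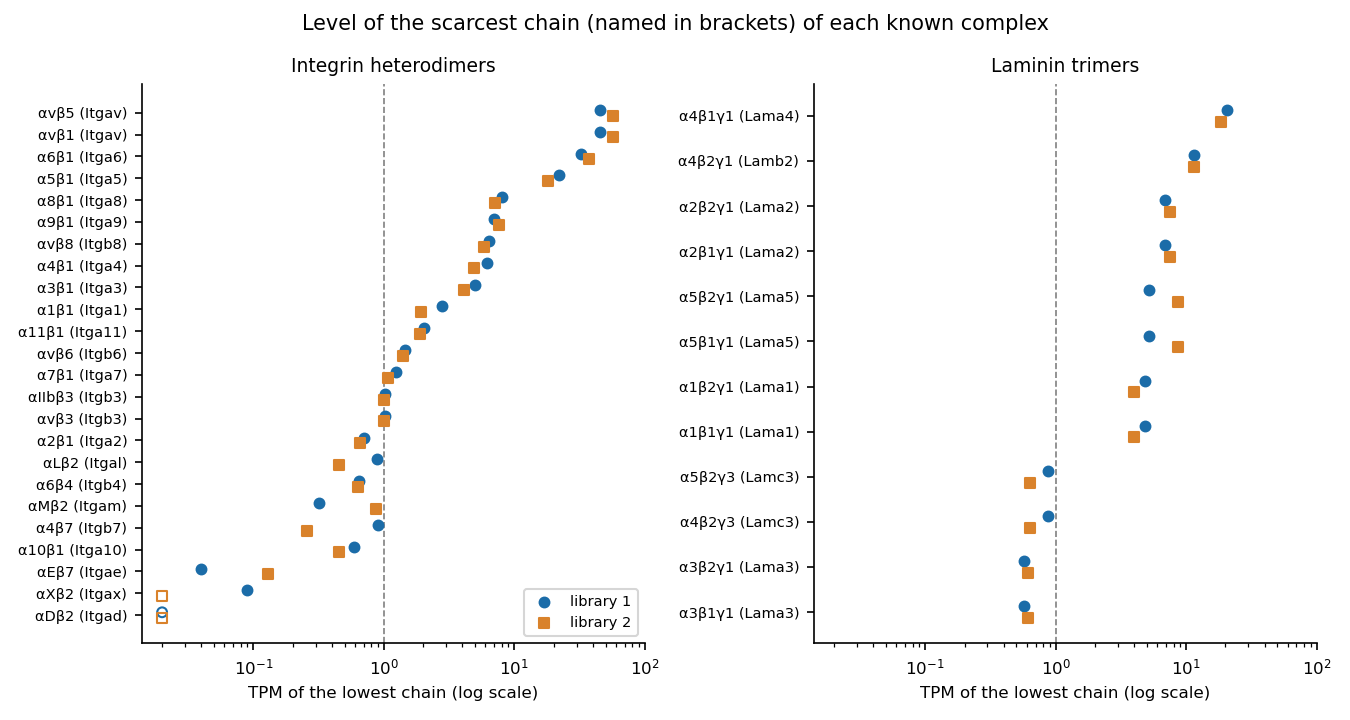
TPM of the scarcest chain, named in brackets, of known integrin pairs (left) and laminin trimers (right), on a log axis; circles are library 1, squares library 2, the dashed line is 1 TPM and open symbols are 0 counts. Trimers α4β1γ1 and α4β2γ1 are at the top, and those that need Lama3 or Lamc3 lie below 1 TPM in both libraries.

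The laminin chains were led by Lamb1 and Lamc1, which encode the β1 and γ1 chains. Lamb1 (chr12:31265234-31329644) measured 38.47 TPM in library 1 and 41.34 TPM in library 2, and Lamc1 (chr1:153218922-153332786) 26.29 and 27.00 TPM. Lamb1 was 3.50 ± 0.17 times Lamb2, the β chain typical of mature vessel, nerve and muscle basement membranes, which measured 11.38 and 11.40 TPM. No neighbours in the order Lamb1, Lamc1, Lama4, Lamb2 overlapped.

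Of the α chains, which carry the binding site for integrins, Lama4 was the highest, with 20.67 and 18.59 TPM. Lama4 has a short N-terminal arm and is made by endothelium and mesenchyme. Lama2, the chain of muscle and nerve basement membrane, measured 6.90 and 7.52 TPM, and Lama5, the broad epithelial and vascular chain, 5.21 and 8.72 TPM. The range of Lama5 enclosed that of Lama2. Lama1, the chain of the earliest embryonic basement membranes, measured 4.81 and 3.98 TPM. Lama4 was 2.73 ± 0.37 times Lama2 and 4.48 ± 0.26 times Lama1.

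Lama3, Lamb3 and Lamc3 were under the threshold. Lama3, an α chain of epithelial basement membranes, had 0.57 and 0.61 TPM from 72.8 and 70.8 counts, and Lamb3, an epithelial β chain, had 0.85 and 0.73 TPM from 46 and 31 counts. Lamc3 had 0.87 and 0.63 TPM from 103.2 and 76 counts. The epithelial keratin genes Krt14 (23.75 and 23.32 TPM) and Krt5 (5.03 and 5.54 TPM) and the regulator Trp63 (17.15 and 15.57 TPM) were detected in the same libraries.

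Of 13 known trimers, 8 had all chains detected: α1β1γ1, α1β2γ1, α2β1γ1, α2β2γ1, α4β1γ1, α4β2γ1, α5β1γ1 and α5β2γ1. Over all transcripts the scarcest chain in α4β1γ1 was Lama4, and in α4β2γ1 it was Lamb2 at 11.38 and 11.40 TPM. In the other 6 the α chain was the scarcest. The others fell short through Lama3 or Lamc3, and at a threshold of 0.5 TPM all 13 would count.

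Lama5 and Lamc1 also drew much of their TPM from short transcripts. Processed transcripts of 734 nt and 478 nt were the largest contributors to Lama5 in library 1 and library 2, with 33.11% and 34.81%. Long transcripts held 28.9% and 19.5% of its TPM but 90.2% and 86.3% of its counts, and averaged 1.60 ± 0.14 TPM (n = 2), below Lama1. For Lamc1 a coding transcript of 1447 nt held 52.70% and 54.38% of TPM, and long transcripts measured 12.2 TPM in both libraries. For Lama2 long transcripts measured 3.29 and 2.44 TPM. With long transcripts alone all 8 trimers still had every chain above 1 TPM, and the order of the α chains became Lama4, Lama1, Lama2, Lama5. Lama4, at 15.4 and 13.3 TPM, then stood above Lamc1, so that Lamc1 became the scarcest chain of α4β1γ1.

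**Figure D3:**
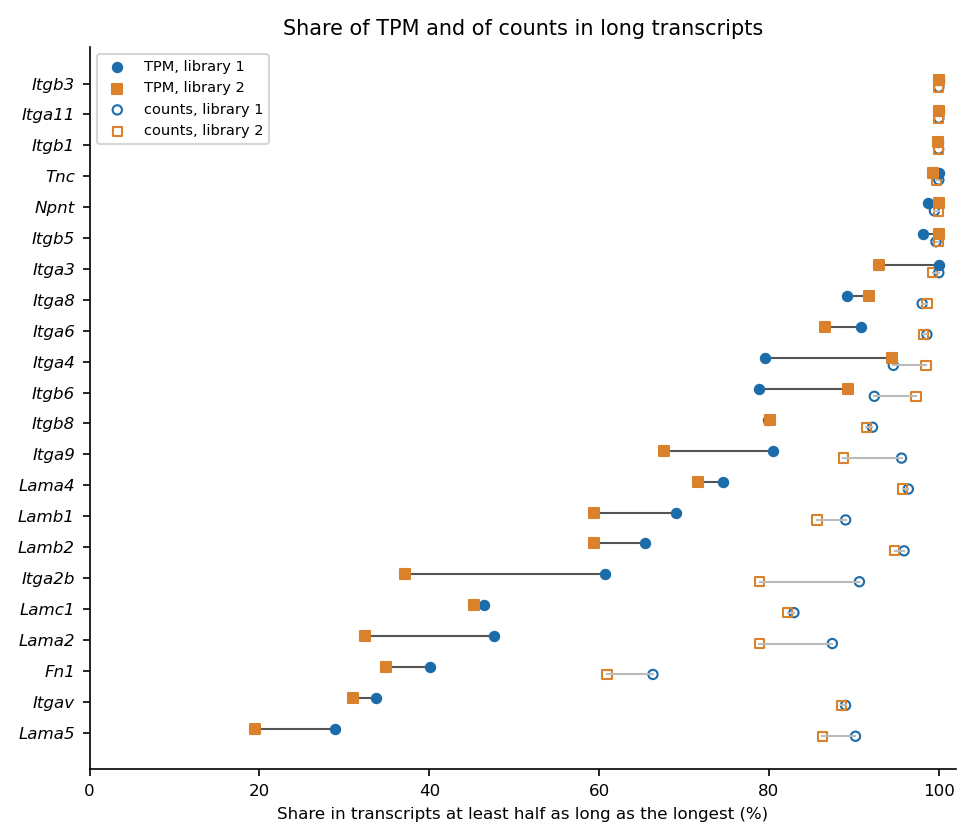
Share of each detected gene's TPM (filled) and expected counts (open) that fell on transcripts at least 50% as long as its longest, in percent, for genes with more than 1 transcript; circles are library 1 and squares library 2. For Lama5, Itgav, Fn1, Lama2 and Lamc1 less than 50% of TPM was in long transcripts in both libraries, while more than 60% of their counts was.

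Fn1 (chr1:71585520-71653200, minus strand) was the second most abundant of the 42 genes, at 91.85 TPM in library 1 and 92.16 TPM in library 2, from 9292 and 8997 counts. Over long transcripts it averaged 34.5 TPM, below Itgb5 at 59.9 TPM and Nid1 at 39.98 TPM. Nid1, which bridges laminin γ1 to type IV collagen, measured 41.13 and 38.84 TPM, and Nid2 31.13 and 28.96 TPM, so that Nid1 was 1.33 ± 0.01 times Nid2. Both were higher than Lamc1. Exons of Nid2 share 437 bases with Rtraf on the opposite strand, which measured 208.84 and 220.42 TPM, and the effect on the level of Nid2 was not tested. Npnt, the ligand of α8β1, measured 13.59 and 11.43 TPM, and Tnc, a ligand of α9β1 and αv integrins, 9.83 and 10.40 TPM. No neighbours overlapped among these 5.

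Integrins α5β1, α8β1 and the αv pairs read the letters RGD in their ligands, and the codons for them were searched in frame in the longest annotated coding sequence of each ligand (GENCODE M21). Fn1 held 2, Lama5 held 2, and Npnt, Nid1, Nid2, Lama1, Lama3 and Lama4 held 1 each, while Tnc and Lama2 held none. Of the 21562 coding sequences of mouse genes, 7.25% held RGD, and of the 6014 at least as long as that of Npnt (1827 bases), 15.2% did. A match is only a description of the letters. The best known site of fibronectin, at chr1:71606731-71606769, and the site of nephronectin on chromosome 3, whose surroundings span a splice junction, are shown with 15 bases on each side and the codons in capitals.
Fn1 RGD: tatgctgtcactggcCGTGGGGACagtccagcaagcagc
Npnt RGD: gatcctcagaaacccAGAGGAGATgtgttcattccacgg
The absence of a match in Tnc and Lama2 says only that these letters are not in those coding sequences.

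Fibronectin exists in forms that differ by 3 alternative segments. EIIIB and EIIIA are whole cassette exons, each coding for a complete type III domain, that plasma fibronectin of the liver lacks and embryonic matrix fibronectin holds. The variable segment V is cut from one exon by 3 acceptor sites and in its first part holds a site for α4β1 centred on Leu-Asp-Val (LDV). The EIIIB exon of 273 bases (chr1:71613763-71614035), the EIIIA exon of 270 bases (chr1:71603660-71603929) and the first 75 bases of V (chr1:71597673-71597747) are shown on the minus strand of mm10 from GENCODE M21, because these segments distinguish the forms counted next. The capitals mark the LDV codons, which 12.7% of all mouse coding sequences hold, and 24.9% of those with at least 1827 bases.
EIIIB: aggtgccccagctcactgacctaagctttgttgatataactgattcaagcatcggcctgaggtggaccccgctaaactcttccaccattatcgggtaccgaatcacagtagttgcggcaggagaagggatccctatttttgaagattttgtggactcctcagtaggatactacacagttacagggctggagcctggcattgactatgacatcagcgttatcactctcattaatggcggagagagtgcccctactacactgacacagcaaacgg
EIIIA: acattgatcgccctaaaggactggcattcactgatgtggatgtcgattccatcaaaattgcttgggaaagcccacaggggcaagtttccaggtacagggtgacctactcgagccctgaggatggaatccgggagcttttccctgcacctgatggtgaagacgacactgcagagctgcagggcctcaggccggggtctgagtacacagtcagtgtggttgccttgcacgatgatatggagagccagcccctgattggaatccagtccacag
V, first 75 bases: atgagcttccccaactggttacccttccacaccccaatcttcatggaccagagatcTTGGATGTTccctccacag

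Among the full-length coding transcripts the embryonic form dominated. Fn1-201, which holds EIIIB, EIIIA and the longest V, measured 30.63 TPM in library 1 and 27.52 TPM in library 2, from 5160 and 4720 counts. Fn1-214, which has EIIIA and the longest V but no EIIIB, measured 4.24 and 2.95 TPM. Fn1-203, with neither EIII exon, measured 1.19 and 0.69 TPM, and the transcript with EIIIA and the V form that lacks the first 75 bases, 0.77 and 0.69 TPM. Fn1-216 and Fn1-217 were at 0 in both libraries.

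Over coding transcripts that span each exon, EIIIB was held by 83.2% of TPM in library 1 and 85.5% in library 2 (84.4% ± 1.7, n = 2). EIIIA was held by 96.8% and 97.9% (97.3% ± 0.8). The longest V form, with 120 codons beyond the shortest, took 97.9% and 96.9%, the form with 95 codons 2.09% and 2.15%, and the form with none 0% and 0.995%. Among coding transcripts EIIIB was thus the segment most often left out, and the LDV segment was present in nearly all.

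The share for EIIIA rests on leaving out a non-coding transcript. Fn1-202, annotated as a retained intron with 4022 nt and 17 exons, was the largest single contributor to the TPM of Fn1, with 34.51% in library 1 and 38.67% in library 2, at 31.69 and 35.64 TPM from 2549 and 2918 counts. Its exons skip EIIIA and do not reach EIIIB. With all transcripts that span the exon, EIIIA was held by 52.0% and 46.4% of TPM, and EIIIB by 73.4% and 75.9%. Whether reads given to Fn1-202 came from RNA that skips EIIIA, or from RNA that shares its other exons or its retained intron, was not tested. Summed over the long transcripts, Fn1 measured 36.8 and 32.2 TPM, 40.1% and 34.9% of its total.

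**Figure D4:**
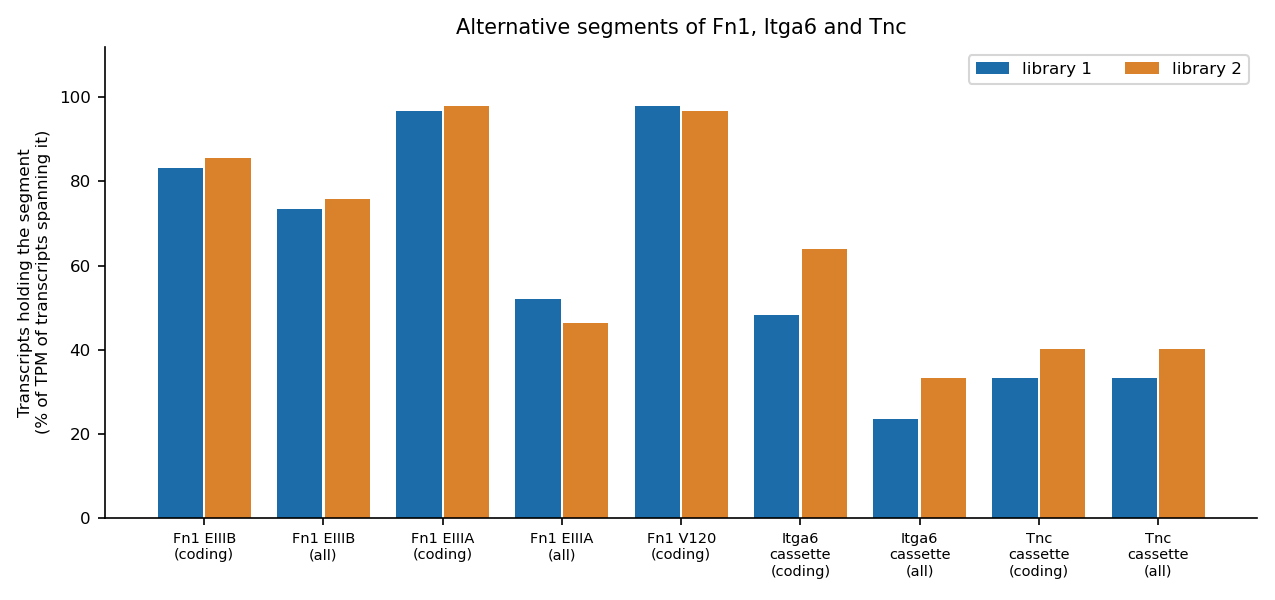
Percent of TPM, among transcripts that span it, in transcripts that hold each alternative segment of Fn1, the 130-base exon of Itga6 and the 273-base exon of Tnc; blue bars are library 1, orange bars library 2, over coding transcripts or over all transcripts. EIIIA stands at 96.8% and 97.9% over coding transcripts and at 52.0% and 46.4% over all, and the Itga6 exon is higher in library 2 either way.

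Itga6 has a cassette exon of 130 bases near its 3′ end that gives the α6A cytoplasmic tail, and skipping it shifts the frame to give α6B, the tail known from pluripotent cells. Its coding part of 105 bases, at chr2:71853534-71853638 on the plus strand, is shown because the share given to each tail was not the same in the libraries.
Itga6 exon, coding part: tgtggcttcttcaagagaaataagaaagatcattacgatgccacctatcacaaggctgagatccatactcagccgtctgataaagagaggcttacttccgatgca
Over coding transcripts the exon was held by 48.2% of TPM in library 1 (6.83 TPM with it and 7.35 TPM without) and by 63.9% in library 2 (10.62 and 5.99 TPM). The posterior SD of the counts given to the transcript with the exon was 91.7 for 589 counts in library 1 and 126 for 934 counts in library 2, so the split of reads between the tails is itself uncertain. A processed transcript, Itga6-203, held 45.77% and 41.06% of the gene's TPM, and with all transcripts the exon share was 23.5% and 33.3%.

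Tnc has alternative type III domains between its constant ones. An exon of 273 bases (chr4:63984460-63984732) was held by 33.3% of TPM in library 1 and 40.2% in library 2 (36.8% ± 4.8, n = 2), all from Tnc-203, while Tnc-204, without it, was dominant with 60.38% and 56.84%. Other genes with a mean of at least 10 TPM mostly had 1 dominant coding transcript in both libraries. Itgb1-201 held 99.53% and 99.34% of the TPM of Itgb1, Itgb5-202 94.30% and 91.36%, Npnt-202 87.02% and 91.69%, Lama4-201 74.52% and 71.67%, Lamb1-201 68.65% and 59.10%, and Lamb2-201 65.42% and 59.42%. The files hold a single transcript for Itga5, Nid1 and Nid2.

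Most of these genes lay close together in the 2 pools. Ratios were taken as library 2 over library 1 from expected counts scaled by TMM, with exact 95% Clopper-Pearson intervals that cover counting error only, for the 39 genes with at least 50 counts over both libraries. Of these, 32 lay within 1.3-fold. The same share over all protein-coding genes was not counted, so this does not set these genes apart. The detected ones among the 39 ran from 0.701 (Itga1) to 1.21 (Lama5). The median log2 ratio was -0.08, beside 0.00237 over the 13560 protein-coding genes with 50 counts.

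At least 1.5-fold apart were 3 of the 39 genes, beside 5.58% of protein-coding genes. These were Itgb7 (3.42-fold higher in library 1, interval 1.86 to 6.72), Itgal (2.00-fold higher in library 1, 1.34 to 3.03) and Itgam (1.97-fold higher in library 2, 1.23 to 3.22), all chains of leukocyte integrins and all under 1 TPM in both libraries. All 3 had fewer than 200 counts, where 29% of protein-coding genes were as far apart and 3 of 11 of the genes described here. Of the 28 with at least 200 counts, none was 1.5-fold apart, beside 1.94% of protein-coding genes. Itgb2, the partner of αL and αM, was 1.16-fold higher in library 2 with an interval that included 1 (0.783 to 1.72). The summed leukocyte markers were 0.961 times as high in library 2, with Spi1 1.69-fold higher in library 1 (1.22 to 2.38); their part in these ratios was not tested.

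The counting interval left out a ratio of 1 for 20 of the 39 genes. In 13 of the 39 (33.3%) it lay on the side of library 1, beside 20.1% of protein-coding genes, and in 7 (17.9%) on the side of library 2, beside 23.6%. Whatever their interval, 26 of the 39 (66.7%) were higher in library 1, and 30 (76.9%) were when counts were scaled by library totals. The same share over all protein-coding genes was not counted. The median log2 ratio of protein-coding genes was 0.00237 with TMM and -0.0326 with library totals. The middle protein-coding gene was thus slightly higher in library 2 with TMM and in library 1 with library totals, so the scaling moved genes in general. Higher in library 2 were Itgb1 (1.10-fold, 1.08 to 1.13), Itgb5 (1.10-fold, 1.05 to 1.15), Itgav (1.204-fold, 1.14 to 1.27) and Itga6 (1.14-fold, 1.07 to 1.21), the most abundant β and α chains. Lama5 (1.21-fold, 1.06 to 1.39), Tnc and Itgam were the others. Higher in library 1 were Itga5 (1.18-fold, 1.10 to 1.26), Itga3 (1.27-fold, 1.11 to 1.45), Itga1 (1.43-fold, 1.204 to 1.69) and Itga2b (1.41-fold, 1.10 to 1.82), together with Itga4, Fn1, Nid2, Npnt, Lama1, Lama2, Lama4, Itgal and Itgb7. Such intervals hold no spread between pools, so they do not say that the genes differ beyond it.

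The ratio of TPM gave another picture for some genes. Several of them drew TPM from short transcripts, but Lama3, Itgb3 and Itgb4 had 100% of it in long ones in both libraries. For Lama5 the TPM was 1.67 times as high in library 2, against 1.21 for the counts, and for Lama2 it was 1.09, against 0.859. For Itga2b the TPM ratio was 0.979 against 0.709 for the counts, and for Itga4 it was 0.785 against 0.915. The direction turned for Lama2, for Fn1 (1.003 against 0.970) and for Lamb1 (1.07 against 0.980). It also turned for Lama3 (1.07 against 0.974) and Lamb2 (1.002 against 0.939). For Itgb3, Itgb4 and Itgb6, each with a count ratio of 1.002, the TPM ratios were 0.981, 0.984 and 0.959.

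**Figure D5:**
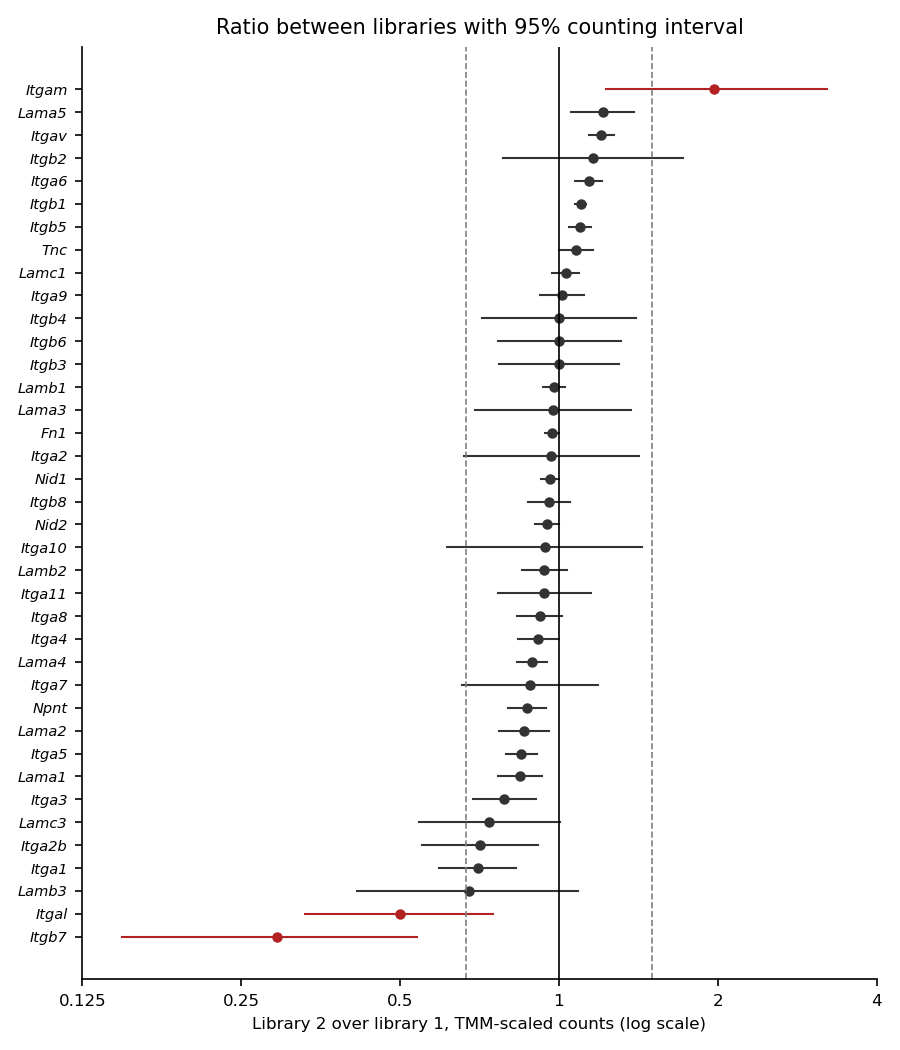
Ratio of library 2 over library 1 in TMM-scaled counts for genes with at least 50 counts, on a log axis, with exact 95% counting intervals; dashed lines mark 1.5-fold either way and red marks the 3 genes past them. The genes near 1 with short bars are the abundant ones, and Itgb7, Itgal and Itgam stand outside the lines.

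Genes for the proteins that join integrins to actin were widely detected. Of 23 linker genes 22 were detected, beside 58.5% of all protein-coding genes. The median of the 23 was 24.1 TPM, beside 3.45 TPM over all protein-coding genes, and their sum was 1066 and 1015 TPM. The highest were Flna, filamin A, which crosslinks actin (220.35 and 199.65 TPM), Ilk, the integrin-linked pseudokinase (211.85 and 207.07 TPM), Actn4, an α-actinin (147.36 and 138.83 TPM), and Lims1, the PINCH protein that binds Ilk (75.31 and 66.42 TPM). All 23 had at least 50 counts, and the counting interval put 8 higher in library 1, beside 20.1% of protein-coding genes, and 6 higher in library 2, beside 23.6%. Among these 6 was Lims1 (1.12-fold, 1.07 to 1.16), although its TPM was lower in library 2. Of the 23, 2 were at least 1.5-fold apart, beside 5.58% of protein-coding genes. Lims2, the paralog of Lims1, was 1.65-fold higher in library 2 (1.07 to 2.60) at 1.07 and 1.74 TPM, and Parvg, the parvin of blood cells, 3.92-fold higher in library 2 (2.05 to 8.13) at 0.29 and 0.89 TPM.

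Of 21 further matrix ligands and basement membrane genes, 19 were detected, beside 58.5% of all protein-coding genes. The median of the 21 was 15.9 TPM, beside 3.45 TPM over all protein-coding genes. Fbln1, fibulin 1, which binds fibronectin and nidogen, led with 157.00 and 150.30 TPM. Postn, periostin, a ligand of αv integrins, measured 55.78 and 66.81 TPM, Col4a1, a chain of type IV collagen, 65.03 and 56.63 TPM, and Fbln2, fibulin 2, 57.14 and 46.49 TPM. Of the 19 with at least 50 counts, 7 were higher in library 1 and 3 in library 2 by the counting interval, beside the same 20.1% and 23.6% of protein-coding genes, and none was 1.5-fold apart, beside 5.58%.

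Dystroglycan is the main laminin receptor that is not an integrin, and sugars added by a chain of enzymes let it bind. All 10 genes of this group were detected, beside 58.5% of all protein-coding genes. The median of the 10 was 11.4 TPM, beside 3.45 TPM over all protein-coding genes. Dag1, dystroglycan itself, measured 37.30 and 33.26 TPM, a range that overlapped that of Itga6. Pomgnt1, an enzyme of its glycosylation, measured 42.94 and 39.69 TPM, and Bcam, a receptor for laminin α5, 39.31 and 32.92 TPM. By the counting interval 5 of the 10 were higher in library 1 and none in library 2, and none was 1.5-fold apart, beside 20.1%, 23.6% and 5.58% of protein-coding genes.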

How the data were processed

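Per the notes deposited with the files, the authors quantified each library against GENCODE M4 on mm10. Per the file headers, the authors' columns are expected counts, with reads that match several places divided, TPM, posterior means with their SD and, per transcript, the isoform percentage (percent of the gene's TPM). Aligner, quantifier versions and strandedness are not given in the sources used here. GENCODE M21, which uses the same assembly, supplied symbols and positions. Counts were rounded for TMM (edgeR 4.0.16, R 4.3.3) and DESeq2 1.42.0 size factors, and neither tool's test was run. The ratio code was tested on simulated data. A count of 0 was given a limit of 3 counts. Reads here carry no molecular identifiers, so intervals and limits cover counting error only. The largest posterior SD of a detected gene was 0.550% of its count, so reads were assignable between genes, less so between transcripts. Exon shares used TPM of coding transcripts that span the exon. RGD and LDV were searched as codons, in frame, since no protein table was used here. The genes, lists and rules were chosen with earlier results of these data known. Genes were named where detected or by their counts, except that some are not reported here, with up to 4 leading genes per pathway list and any others at least 1.5-fold apart at a mean of 1 TPM, and isoforms for means of at least 10 TPM. Alternatives were other detection thresholds, scalings, count minimums, posterior means and single libraries.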

Additional observations from a re-analysis of the deposited data

How the results depend on the processing

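With either library alone, 29 to 30 genes, 15 pairs and 8 trimers were detected, and the shares of Fn1 TPM were 96.8% to 97.9% for EIIIA, 83.2% to 85.5% for EIIIB and 96.9% to 97.9% for the longest V form. At 2 TPM the detected pairs numbered 9, and at 0.5 TPM the trimers numbered 13. With at least 200 counts, 0 genes were 1.5-fold apart. From posterior mean TPM the shares were 95.6% for EIIIA, 82.2% for EIIIB and 94.0% for the longest V form. Over all spanning transcripts they were 49.2% for EIIIA and 74.7% for EIIIB. Scaling by library totals in place of TMM moved the share of the 39 genes higher in library 1 from 66.7% to 76.9%. It also moved the median log2 ratio of all protein-coding genes, from 0.00237 to -0.03. The other counts stayed within 1.5 times of those reported. No paired analysis was possible because there is 1 group. Low counts limit every ratio of genes under 1 TPM. Using long transcripts, long coding transcripts and ratios of TPM were alternatives chosen after seeing the data. Of 29 levels, long transcripts moved 14, long coding transcripts 14 and posterior mean TPM 8 by more than the SD of the libraries. TPM over mouse genes only moved 27, since spike-ins took 15.4% and 15.8% of TPM.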
